A study of Mus musculus with 30 samples.

Results

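The response described here is that of distal hindlimb mesenchyme to 2 days of culture with BMP4, a signalling protein secreted by limb tissues and named for its power to induce bone. It rests on 4 of the 30 Affymetrix arrays of the series, chosen by their labels as the early population at day 2, with 2 BMP4 arrays and 2 control arrays. The tested cells were CD-1 mouse limb bud cells of stage E10.5, plated as dense micromass spots, with 20 ng/ml BMP4 in the medium from the start of culture. The control cells came from the same tissue and stage and had the same medium without BMP4. The labels call the arrays of a group biological replicates. Per the labels, RNA was taken from cultures of about 280 embryos, without saying whether this number is for an array, a group or all arrays, and the labelling reaction started from 1 ug. Cultures of stage E11.5 appear in the growth protocol as well, and no array used here carries that stage. The closing comparisons use 4 day 1 arrays of the same hindlimb cells, and 8 day 2 arrays of distal forelimb cells (intermediate population) and proximal forelimb cells (late population) of the same strain, stage and dose. Nothing in the labels says that replicates came from separate cultures, so p-values measure only the spread between replicate arrays. That spread is shared over all 24 arrays of days 1 and 2, which include day 1 forelimb arrays with and without BMP4. Every value below is a log2 level, log2(signal + 16), and every difference is BMP4 minus control on that scale with its standard error.

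Limb cartilage forms when loose mesenchymal cells gather into condensations, switch on the transcription factor Sox9 and lay down a matrix rich in type II collagen and aggrecan. BMPs act through paired serine/threonine kinase receptors and SMAD proteins, and their first targets include Id, Msx and Smad6 genes. In limb buds BMP signals are known both for promoting cartilage in competent cells and for other outcomes, such as cell death or restrained growth, at other stages and places.

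The 4 arrays carried the hindlimb identity that their labels give. Pitx1, a hindlimb homeobox factor, read 9.53 and 9.37 in BMP4 cultures, against 9.78 and 9.71 in control cultures. Tbx4, the hindlimb T-box factor, read 9.93 and 10.29 in BMP4 cultures, against 10.01 and 9.95 in control cultures. Tbx5, its forelimb counterpart, read 5.08 and 4.75 in BMP4 cultures, against 5.82 and 4.99 in control cultures. The first pair of genes was thus bright and the forelimb gene dim on all 4 arrays, and none of the 3 passed the test. The median signal was 46.1 and 44.0 on the BMP4 arrays, against 39.1 and 37.5 on the controls. Replicates correlated across genes at 0.970 in BMP4 cultures and 0.981 in control cultures.

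BMP4 changed genes in both directions. Of 14944 genes tested, 389 were higher with BMP4, or 2.6% of those tested. Another 496 were lower, or 3.32%, which makes 885 genes and 5.92% past an adjusted p of 0.05 in limma's moderated test. The largest rise was that of Tbx20, a T-box gene with a known role in heart development, and the largest falls were those of the cartilage matrix genes Matn1 and Cnmd. Among the rises 207 exceeded 1 on the log2 scale and 32 exceeded 2, and among the falls 146 and 18 did. The median difference over all genes was 0.02, and 52.1% of genes lay above 0. The plot of all genes by level shows the rises spread over dim and bright genes, and many of the smaller falls among bright genes.

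**Figure D1:**
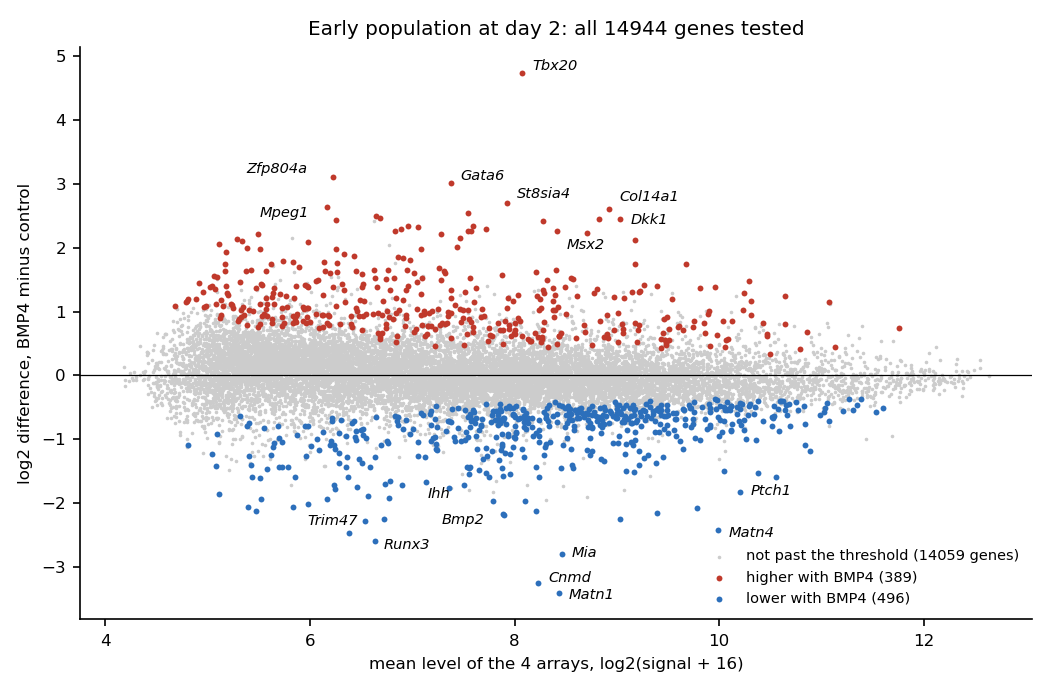
Each point is 1 gene: the x axis is its mean level on the 4 arrays, log2(signal + 16), and the y axis its log2 difference, BMP4 minus control. Red points are the 389 genes that were higher with BMP4, blue points the 496 that were lower, and grey points the rest. Tbx20 stands alone at the top with 4.73, and Matn1 and Cnmd lie lowest with -3.41 and -3.25.

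The size of the response depended on which arrays were used. BMP4 replicate 2 lay further from the control mean than BMP4 replicate 1 for 396 of the 496 lower genes, or 79.8%, and for 296 of the 389 higher genes, or 76.1%. Without BMP4 replicate 2 the test called 59 genes higher and 37 lower, and without BMP4 replicate 1 it called 319 and 503. Without control replicate 1 the counts were 83 higher and 55 lower, and without control replicate 2 they were 189 and 163. When only these 4 arrays were fitted, 116 genes were higher and 74 lower. A set of 52 higher and 24 lower genes passed with all arrays and in each of these 4 fits. Of the 189 named genes that passed, 37 belong to it. They are Bmp2, C1qa, Cd36, Cd53, Cdh2, Chst15, Col14a1, Csf1r, Ctss, Dcn, Dkk1, Galnt3, Gata6, Glra2, Gpr22, Gucy1b1, Ihh, Jag1, Lbhd2, Matn1, Nell1, Olfml2b, Pcolce2, Ralyl, Rdh10, Slc15a3, Slc26a7, Slitrk5, St8sia4, Tbx2, Tbx20, Tbx3, Trim47, Twist2, Tyrobp, Zeb2 and Zfp804a. Every other named call was lost without at least 1 of the 4 arrays. RNA of a whole culture does not show whether a lower level means fewer cells of a type or less RNA per cell.

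The BMP target genes were mixed at day 2. Msx1, Msx2, Dlx2 and Noggin were higher, Dlx5 was lower, and Id1, Id2 and Id3 did not pass the test. Of 24 tested targets and feedback genes 4 rose and 1 fell, with a median difference of 0.28, beside 0.02 over all genes. Msx2, a homeobox factor and classical BMP target, read 9.31 and 9.78 in BMP4 cultures, against 7.05 and 7.51 in control cultures. Both of its BMP4 arrays lay well above both controls, and the rise was 2.27 ± 0.40 (adjusted p = 0.00356). Dlx2, a distal-less homeobox factor, read 7.56 and 8.26 in BMP4 cultures, against 5.22 and 5.68 in control cultures, a rise of 2.46 ± 0.54 (adjusted p = 0.0127). Noggin (Nog), a secreted protein that binds and blocks BMPs, read 8.23 and 8.11 in BMP4 cultures, against 6.92 and 6.82 in control cultures. Its groups lay apart with close replicates, and the rise was 1.30 ± 0.31 (adjusted p = 0.0186). Msx1, the relative of Msx2, rose by 1.02 ± 0.28 (adjusted p = 0.0394). Dlx5, a homeobox factor also used in cartilage maturation, fell by 1.15 ± 0.24 (adjusted p = 0.0101). No target passed as higher without BMP4 replicate 2 or control replicate 1, and 2 did without either of the other arrays.

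The direct SMAD targets of the Id family showed no detectable difference. Id1, an inhibitor of basic helix-loop-helix factors, read 9.42 and 9.57 in BMP4 cultures, against 9.78 and 9.87 in control cultures (difference -0.33 ± 0.21, adjusted p = 0.403). Its relatives Id2 and Id3 differed by 0.07 ± 0.15 and -0.07 ± 0.22 (adjusted p = 0.828 and 0.899), and their groups overlapped. Smad6, the inhibitory SMAD, read 9.72 and 10.34 in BMP4 cultures, against 8.99 and 9.41 in control cultures. Its BMP4 arrays lay above the controls, but the difference of 0.83 ± 0.30 did not pass (adjusted p = 0.119).

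Among the ligands, Bmp2 had the smallest adjusted p. This signalling relative of BMP4 read 7.16 and 6.43 in BMP4 cultures, against 9.16 and 8.78 in control cultures. The BMP4 arrays lay far below the controls, and the gene fell by 2.17 ± 0.21 (adjusted p = 5.38e-05). Gdf10, another secreted ligand of the superfamily, read 9.18 and 8.21 in BMP4 cultures, against 10.09 and 10.06 in control cultures, and fell by 1.38 ± 0.38 (adjusted p = 0.042). Bmp7 had a difference of -1.76 ± 0.52 that did not pass (adjusted p = 0.0568). The transcript of Bmp4 itself read 9.79 and 10.14 in BMP4 cultures, against 9.39 and 9.84 in control cultures, and the groups overlapped (0.35 ± 0.40, adjusted p = 0.674). In all 2 of 10 tested ligands fell and 0 rose, with a median of -0.10.

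Receptors and SMADs moved little. Of 19 tested, 1 rose and 0 fell, beside 2.6% and 3.32% of all genes, and their median was -0.01. The riser was Bmpr2, the type II BMP receptor, with 10.08 and 10.19 in BMP4 cultures, against 9.55 and 9.81 in control cultures (0.46 ± 0.13, adjusted p = 0.0479). Acvr2a, an activin and BMP receptor, differed by 0.46 ± 0.13 and just missed the threshold (adjusted p = 0.0536). Of 12 secreted BMP antagonists, Nog rose and Sostdc1, which binds BMPs and WNT co-receptors, fell by 1.57 ± 0.38 (adjusted p = 0.0211). Grem1, the limb bud BMP antagonist, read 7.57 and 7.25 in BMP4 cultures, against 6.20 and 6.19 in control cultures. Its groups lay apart by 1.21 ± 0.43 without passing (adjusted p = 0.109), and so did those of Chrdl2, a chordin relative, with 0.81 ± 0.23 (adjusted p = 0.0505).

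Some T-box factors rose and others fell, and 2 GATA factors and 1 cofactor rose. Of 8 tested T-box genes, 3 rose (Tbx20, Tbx2 and Tbx3) and 3 fell (Tbx1, Tbx15 and Tbx18). Tbx20 read 10.02 and 10.87 in BMP4 cultures, against 5.21 and 6.21 in control cultures. Both control arrays were dim while both BMP4 arrays were bright, a difference of 4.73 ± 0.51, or 26.6-fold on the scale of signal + 16 (adjusted p = 0.000124). Tbx2, a repressor expressed at the limb margins, read 8.55 and 8.54 in BMP4 cultures, against 6.56 and 6.22 in control cultures, and rose by 2.15 ± 0.35 (adjusted p = 0.00232). Its close relative Tbx3 read 7.72 and 7.85 in BMP4 cultures, against 6.20 and 5.68 in control cultures, and rose by 1.85 ± 0.28 (adjusted p = 0.00123). The 3 risers passed in each fit without 1 array. Tbx18, a factor of proximal limb mesenchyme, read 8.80 and 8.84 in BMP4 cultures, against 9.97 and 10.20 in control cultures. It fell by 1.27 ± 0.23 (adjusted p = 0.00462), and Tbx15, needed for limb skeletal elements, fell by 1.16 ± 0.22 (adjusted p = 0.00649). Tbx1, known from the pharyngeal region, fell by 1.59 ± 0.35 (adjusted p = 0.0128). The number of T-box genes lower was 0 without BMP4 replicate 2, 1 without control replicate 1, and 2 without BMP4 replicate 1.

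All 8 tested GATA factors and FOG cofactors lay above 0, and 7 of them had both BMP4 arrays above both controls, where 27.1% of all genes did. Their median difference was 0.88, and 3 passed. Lists were chosen with earlier results of these data known, so such counts here and below describe the list members and test nothing. The shares over all genes are not matched for level, and the smallest of the 8 differences was 0.10. The 40th percentile of signal was 30.1 and 28.2 on the BMP4 arrays, against 24.4 and 23.0 on the controls. Whether this offset raised such counts for dim genes was not tested. Gata6, a zinc-finger factor of heart and visceral mesoderm, read 8.61 and 9.15 in BMP4 cultures, against 5.87 and 5.87 in control cultures. The control arrays were equal to the second decimal and the BMP4 arrays far above them, a rise of 3.01 ± 0.42 (adjusted p = 0.000938). Zfpm2, the cofactor also called FOG2, rose by 1.57 ± 0.43 (adjusted p = 0.0371), and Gata2 rose by 0.65 ± 0.19 (adjusted p = 0.0493). Gata3 read 7.47 and 8.13 in BMP4 cultures, against 5.07 and 6.43 in control cultures. Its controls lay more than 1 apart, and the difference of 2.05 ± 0.74 did not pass (adjusted p = 0.118). A single GATA gene, Gata6, passed without BMP4 replicate 2 or either control array, and 1 gene did with no filter, with no trend or when only these 4 arrays were fitted. Of 19 lateral plate and cardiac factors 4 rose and 0 fell, namely Tbx20, Gata6, Hand1 and Myocd. Hand1, a basic helix-loop-helix factor, read 8.11 and 8.78 in BMP4 cultures, against 6.65 and 6.22 in control cultures, and rose by 2.01 ± 0.46 (adjusted p = 0.0156). Its relative Hand2, a posterior limb factor, had 0.45 ± 0.24 (adjusted p = 0.298). Of the 4, 2 passed without BMP4 replicate 2 or control replicate 1.

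**Figure D2:**
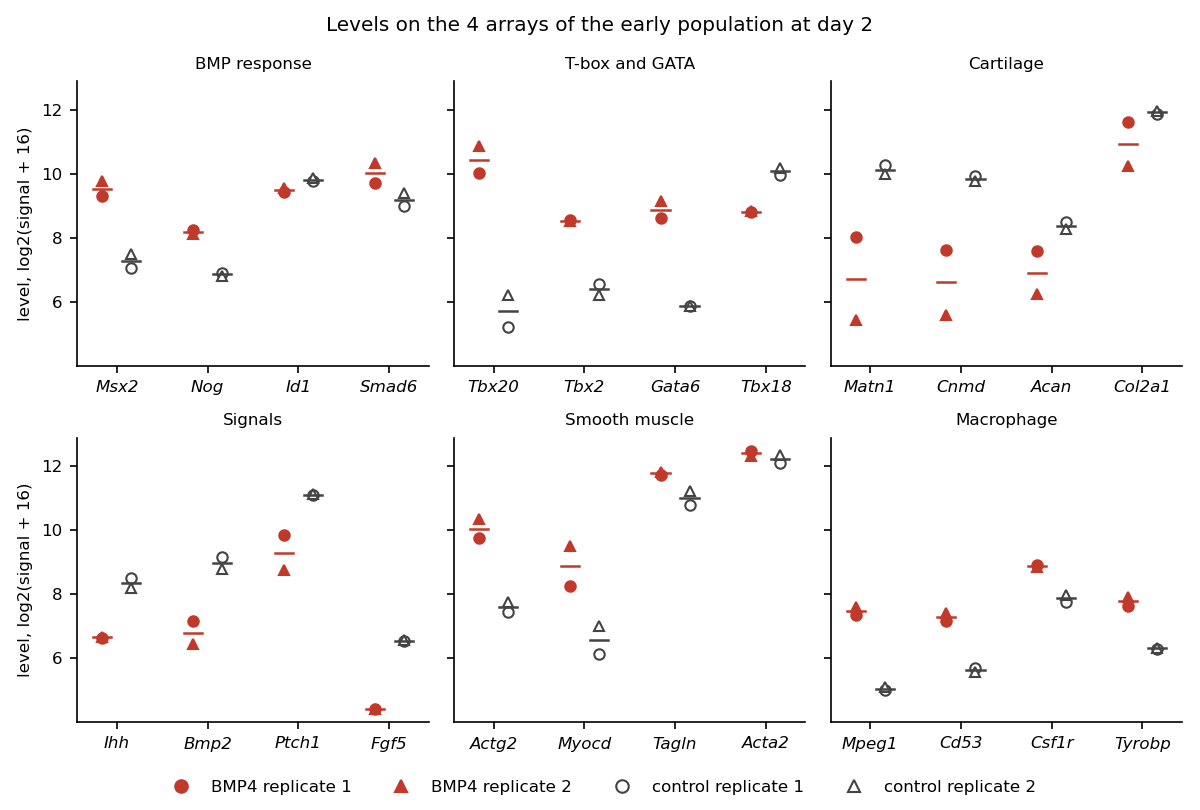
Levels, log2(signal + 16), of 24 genes on each of the 4 arrays, with BMP4 arrays filled red to the left of open control arrays, circles for replicate 1, triangles for replicate 2 and lines at group means. For Tbx20, Gata6 and Mpeg1 the gap between groups is wide beside the spread of replicates, while for Matn1, Cnmd and Acan BMP4 replicate 2 lies well below BMP4 replicate 1.

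A share of the cartilage genes was lower with BMP4. The largest falls among them were those of matrix genes, while Sox9 and Col2a1 had lower means without passing the test. Of 14 tested chondrogenic transcription factors and regulators 4 fell and 0 rose, with a median difference of -1.04, and 10 of them had both BMP4 arrays below both controls, where 25.3% of all genes did. The 4 were the forkhead factors Foxc2 and Foxa3, the calcium-regulated factor Nfatc2, and Trpv4, which is a calcium channel and no transcription factor. Foxc2 read 7.69 and 6.60 in BMP4 cultures, against 9.35 and 9.19 in control cultures, and fell by 2.12 ± 0.42 (adjusted p = 0.00686). For Nfatc2, with a fall of 1.66 ± 0.32 (adjusted p = 0.00665), only 1 of 4 other probe sets had the same sign. None of the 14 passed without BMP4 replicate 2 or control replicate 1, and 1 did when only these 4 arrays were fitted. Array weights gave 7.

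The SOX trio that drives chondrogenesis did not pass. Sox9 read 9.20 and 8.44 in BMP4 cultures, against 9.68 and 9.91 in control cultures. Its BMP4 arrays were both below the controls, with a difference of -0.98 ± 0.37 (adjusted p = 0.132). Sox6, a partner of Sox9, read 8.64 and 6.87 in BMP4 cultures, against 9.53 and 9.80 in control cultures (-1.91 ± 0.56, adjusted p = 0.0525). The other partner, Sox5, read 7.50 and 7.40 in BMP4 cultures, against 7.51 and 7.26 in control cultures, and its groups overlapped.

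All 8 tested cartilage collagens lay below 0, and 7 of them had both BMP4 arrays below both controls, where 25.3% of all genes did. Their median was -1.22, and 3 fell. Col9a3, a chain of type IX collagen, read 9.65 and 7.84 in BMP4 cultures, against 10.78 and 10.86 in control cultures. BMP4 replicate 2 was much lower than replicate 1 here, and the gene fell by 2.08 ± 0.47 (adjusted p = 0.0145). The fibril collagen chains Col11a1 and Col11a2 fell by 1.59 ± 0.39 and 1.44 ± 0.37 (adjusted p = 0.0215 and 0.0281). Col2a1, the chief cartilage collagen, read 11.63 and 10.25 in BMP4 cultures, against 11.89 and 11.99 in control cultures. Replicate 1 of the BMP4 cultures was close to the controls, and the difference did not pass (adjusted p = 0.115). Of these 8 genes, 6 passed without BMP4 replicate 1 and 0 without any of the other 3 arrays. None passed when only these 4 arrays were fitted.

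Of 25 tested cartilage matrix proteins 9 fell and 2 rose, with a median of -0.64. Matn1, a matrilin of cartilage, read 8.02 and 5.44 in BMP4 cultures, against 10.28 and 9.99 in control cultures. The BMP4 arrays lay far apart, and yet both were below both controls, and the gene fell by 3.41 ± 0.55 (adjusted p = 0.00224). Cnmd, or chondromodulin, an inhibitor of vessel growth in cartilage, read 7.62 and 5.60 in BMP4 cultures, against 9.93 and 9.79 in control cultures, and fell by 3.25 ± 0.55 (adjusted p = 0.00271). Aggrecan (Acan), the large proteoglycan of cartilage, read 7.58 and 6.24 in BMP4 cultures, against 8.49 and 8.28 in control cultures. The groups did not overlap, and the gene fell by 1.47 ± 0.37 (adjusted p = 0.0267). The other 6 that fell were Mia, a secreted cartilage protein, by 2.79 ± 0.64, the matrilin Matn4 by 2.42 ± 0.60, Comp by 1.89 ± 0.46, and Chadl, Pcolce2 and Susd5 by 1.44 each. Their adjusted p ranged up to 0.0243. The 2 that rose are not limited to cartilage. Decorin (Dcn), a small proteoglycan of fibrous matrix, read 7.87 and 8.38 in BMP4 cultures, against 6.73 and 6.26 in control cultures, and rose by 1.63 ± 0.25 (adjusted p = 0.00157). Edil3, an integrin-binding matrix protein, rose by 1.39 ± 0.24 (adjusted p = 0.00356). The number of the 25 that fell was 2 without BMP4 replicate 2, 4 without control replicate 1 and 6 without control replicate 2. It was 3 when only these 4 arrays were fitted.

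Enzymes that build the sugar chains of cartilage were among the falls. Of 19 tested genes of proteoglycan assembly and sulfation 4 fell and 1 rose, with a median of -0.21. Papss2, which makes the sulfate donor, read 9.67 and 8.94 in BMP4 cultures, against 10.72 and 10.87 in control cultures, and fell by 1.49 ± 0.27 (adjusted p = 0.00384). Csgalnact1, which starts chondroitin chains, fell by 1.44 ± 0.35, and the chondroitin sulfotransferase Chst11 fell by 1.34 ± 0.30 (adjusted p = 0.0217 and 0.0155). The smallest p of the 4 was that of Galnt3, an enzyme of mucin-type glycosylation and not of sulfation. It read 5.89 and 5.73 in BMP4 cultures, against 7.58 and 7.89 in control cultures (-1.93 ± 0.20, adjusted p = 7.03e-05). Chsy3, a chondroitin synthase, rose by 1.09 ± 0.29 (adjusted p = 0.0369). Of the 4 that fell, 1 passed without BMP4 replicate 2, and 2 did without either control array, when only these 4 arrays were fitted or with the mean of all probe sets of a gene.

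Some genes of cartilage maturation and of the hedgehog pathway were lower too. Of 15 tested genes of maturation and bone 5 fell and 0 rose, with a median of -0.56. Runx3, a runt factor of chondrocyte maturation, read 5.85 and 4.84 in BMP4 cultures, against 8.40 and 7.46 in control cultures, and fell by 2.59 ± 0.55 (adjusted p = 0.0108). Indian hedgehog (Ihh), the ligand made by prehypertrophic chondrocytes, read 6.62 and 6.67 in BMP4 cultures, against 8.52 and 8.20 in control cultures. Unlike those of Matn1, Cnmd and Acan, its BMP4 replicates lay close together, and the gene fell by 1.72 ± 0.29 (adjusted p = 0.00243). Sp7, the osteoblast factor osterix, and Pth1r, the receptor for parathyroid hormone-related protein, fell by 1.04 ± 0.23 and 0.90 ± 0.25 (adjusted p = 0.0121 and 0.0398). The fifth was Dlx5. Ihh alone of the 5 passed without BMP4 replicate 2 or control replicate 1, and 2 genes passed when only these 4 arrays were fitted.

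Of 18 tested hedgehog pathway genes 5 fell and 1 rose, with a median of -0.25. Ptch1, the hedgehog receptor and a target of the pathway, read 9.84 and 8.76 in BMP4 cultures, against 11.11 and 11.12 in control cultures. The controls were nearly equal, both BMP4 arrays were lower, and the gene fell by 1.82 ± 0.36 (adjusted p = 0.00693). Gli1, an effector and target, read 7.59 and 6.48 in BMP4 cultures, against 8.44 and 8.24 in control cultures, and fell by 1.31 ± 0.37 (adjusted p = 0.0454). Foxd1, a forkhead factor, fell by 1.94 ± 0.36 (adjusted p = 0.0051). Ihh and the cyclin Ccnd1 complete the 5. Gli3, which acts mainly as a repressor in limb buds, was the gene that rose, by 0.56 ± 0.15 (adjusted p = 0.0377). Of the 5, 1 passed without BMP4 replicate 2, without control replicate 1 or when only these 4 arrays were fitted, and 3 did without control replicate 2 or with the mean of all probe sets of a gene.

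Several genes of FGF signalling fell, and none rose. Of 18 tested FGF response genes 4 fell and 0 rose, with a median of -0.28. Etv5, an ETS factor switched on by FGFs, read 8.83 and 8.52 in BMP4 cultures, against 9.75 and 9.61 in control cultures, and fell by 1.00 ± 0.22 (adjusted p = 0.0139). Its relative Etv4 fell by 1.28 ± 0.34 and the growth regulator Mycn by 1.24 ± 0.27 (adjusted p = 0.0351 and 0.0113), and Ccnd1 fell as well. Of 15 FGF ligands and receptors 4 fell and 0 rose. Fgf5, a secreted ligand, read 4.42 and 4.41 in BMP4 cultures, against 6.52 and 6.56 in control cultures. Its replicates were almost equal in each group, with BMP4 cultures dim, and the gene fell by 2.13 ± 0.52 (adjusted p = 0.0234). Fgf9, another ligand, and the receptors Fgfr1 and Fgfrl1 fell by 1.10 ± 0.29, 0.72 ± 0.19 and 0.71 ± 0.15 (adjusted p = 0.0327, 0.0371 and 0.0126). No FGF response gene passed without BMP4 replicate 2 or without either control array. Of the ligands and receptors, 2 passed without BMP4 replicate 1 or control replicate 2, and 0 passed without the other arrays. The 4-array fit called 2 FGF response genes and 1 ligand or receptor. With the mean of all probe sets of a gene, 1 gene of each list fell.

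Some forkhead factors fell too, with 5 of 16 lower, 0 higher and a median of -0.25. Foxd2 read 5.78 and 5.02 in BMP4 cultures, against 7.70 and 7.64 in control cultures, and fell by 2.27 ± 0.44 (adjusted p = 0.00677). Foxp2, a repressor bright in these cells, read 9.98 and 9.25 in BMP4 cultures, against 11.00 and 11.29 in control cultures (-1.53 ± 0.32, adjusted p = 0.0108). Foxc2, Foxd1 and Foxa3 are named above. None of the 16 passed without BMP4 replicate 2 or control replicate 1, and 3 did when only these 4 arrays were fitted. For Foxd2 the other probe set of the gene had the opposite sign without passing.

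WNT and TGF-beta genes had calls in both directions, where 2.6% of all genes tested rose and 3.32% fell. Dkk1, a secreted inhibitor of WNT signalling, read 10.17 and 10.34 in BMP4 cultures, against 7.74 and 7.89 in control cultures. Replicates were close, the groups were far apart, and the rise was 2.44 ± 0.31 (adjusted p = 0.000389). It was the 1 riser among 14 secreted WNT antagonists, of which Sostdc1 fell. Of 36 WNT ligands, receptors and targets 2 rose and 2 fell, with a median of 0.02. The ligand Wnt2 rose by 1.99 ± 0.41 and the receptor Fzd7 by 1.03 ± 0.18, while the receptors Fzd9 and Fzd5 fell by 1.46 ± 0.30 and 0.89 ± 0.24. Their adjusted p were 0.00985, 0.00387, 0.0092 and 0.0348. Of 22 TGF-beta and activin genes, the ligand Tgfb1 rose by 1.03 ± 0.29 and the corepressor Skil by 0.45 ± 0.10, and the receptor Tgfbr2 fell by 0.62 ± 0.12 (adjusted p = 0.0419, 0.0135 and 0.00549). Of 20 Notch genes 1 rose. Jag1, a Notch ligand, read 8.76 and 8.92 in BMP4 cultures, against 7.51 and 7.67 in control cultures (1.25 ± 0.20, adjusted p = 0.00224). Of 19 retinoid genes Rdh10, which makes retinal for retinoic acid synthesis, rose by 1.41 ± 0.21, and the retinol carrier Rbp4 fell by 1.22 ± 0.27 (adjusted p = 0.00122 and 0.0143).

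Position genes of the limb were mixed, where 2.6% of all genes tested rose and 3.32% fell. Of 11 limb identity genes and 16 HoxA and HoxD genes 0 passed limma's test, with medians of 0.12 and 0.14. An unadjusted p under 0.05 was found for 3 and 1 of them, beside 3122 of all 14944 genes. The smallest adjusted p among the Hox genes were 0.169 for Hoxd3 and 0.298 for Hoxa3. Of 18 proximal limb genes 2 rose and 3 fell. Meis2, a homeobox marker of the proximal limb, read 11.10 and 10.96 in BMP4 cultures, against 9.57 and 9.52 in control cultures, and rose by 1.48 ± 0.36 (adjusted p = 0.0224). Meis3 rose by 1.42 ± 0.31 (adjusted p = 0.0117). Shox2, a homeobox factor of the proximal skeleton, read 10.58 and 10.02 in BMP4 cultures, against 11.46 and 11.51 in control cultures, and fell by 1.18 ± 0.25 (adjusted p = 0.00985). Tbx18 and Tbx15 are the other proximal genes that fell, and 0 of the 3 passed without BMP4 replicate 2 and 1 without control replicate 1. Of 20 genes of distal progenitors 3 rose and 2 fell. Jag1, Msx1 and Asb4, part of a ubiquitin ligase, rose, and Mycn and the zinc-finger factor Sall4 fell. Of the 3 risers 1, Jag1, passed without BMP4 replicate 2 or either control array, and the list had 1 riser with the mean of all probe sets, no filter, no trend, all 30 arrays or only these 4.

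Genes of cell adhesion and mesenchymal identity included rises with close replicates. Of 19 condensation and adhesion genes 3 rose and 1 fell, beside 2.6% and 3.32% of all genes. St8sia4, which adds polysialic acid to the adhesion molecule NCAM, read 9.18 and 9.37 in BMP4 cultures, against 6.56 and 6.60 in control cultures. Replicates differed by under 0.2 in both groups, and the rise was 2.69 ± 0.23 (adjusted p = 8.45e-06). Cdh2, or N-cadherin, which holds condensing mesenchyme together, read 11.23 and 11.31 in BMP4 cultures, against 9.93 and 10.12 in control cultures, and rose by 1.24 ± 0.20 (adjusted p = 0.00224). Ncam1, the NCAM gene, rose by 0.62 ± 0.14, and the heparan sulfate proteoglycan Sdc1 fell by 0.64 ± 0.14 (adjusted p = 0.013 and 0.0138). Of 16 mesenchyme factors 3 rose and 1 fell. Zeb2, a zinc-finger repressor, read 8.21 and 9.21 in BMP4 cultures, against 6.03 and 6.85 in control cultures, and rose by 2.27 ± 0.27 (adjusted p = 0.000231). Prrx2, a paired homeobox factor of limb mesenchyme, rose by 1.22 ± 0.22 (adjusted p = 0.00402). Twist2, a basic helix-loop-helix factor, went the other way, with 8.66 and 8.16 in BMP4 cultures, against 10.06 and 9.78 in control cultures (-1.51 ± 0.17, adjusted p = 0.000196). Zeb2 alone of the 3 mesenchyme risers passed without BMP4 replicate 2 or control replicate 1.

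Guidance and growth factor genes were also among the calls, where 2.6% of all genes tested rose and 3.32% fell. Of 40 guidance cues and receptors 5 rose and 2 fell, with a median of 0.25. The risers were the secreted cue Slit3 by 1.40 ± 0.35, the netrin receptor Unc5b by 1.29 ± 0.37, the semaphorins Sema3b and Sema6d by 1.17 ± 0.28 and 1.16 ± 0.28, and the plexin Plxna2 by 1.02 ± 0.23. Sema6a and the ephrin receptor Epha7 fell by 1.25 ± 0.25 and 0.69 ± 0.18. None of the 5 risers passed without BMP4 replicate 2 or control replicate 1, 1 did without control replicate 2, and 2 did without BMP4 replicate 1. Over the whole list 3 rose with log2(signal + 1) or with all 30 arrays fitted. Kit, the receptor of stem cell factor, read 8.42 and 8.94 in BMP4 cultures, against 6.43 and 6.39 in control cultures, and rose by 2.27 ± 0.37 (adjusted p = 0.00233). Its list of 27 chemokine and growth factor receptor genes had 2 risers, with the heparin-binding factor Ptn at 0.74 ± 0.17 as the other, and 3 that fell. These were the receptor-tyrosine-kinase regulators Lrig1 by 1.58 ± 0.37 and Lrig3 by 1.40 ± 0.23, and the chemokine Cxcl12 by 0.84 ± 0.22. For Lrig1 and for Cxcl12, 1 of the 2 other probe sets had the same sign. Without BMP4 replicate 2 none of the 3 that fell passed, and 1 did without control replicate 1.

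Some fibrous matrix and protease genes were higher with BMP4, as were 2.6% of all genes tested, while 3.32% were lower. Of 31 tendon and fibrous tissue genes 3 rose and 1 fell, with a median of 0.15. Col14a1, a collagen that binds fibril surfaces, read 10.12 and 10.33 in BMP4 cultures, against 7.35 and 7.88 in control cultures. Both BMP4 arrays lay over 2 above both controls, a rise of 2.61 ± 0.36 (adjusted p = 0.000884), and both other probe sets of the gene passed too. Postn, or periostin, read 10.24 and 10.86 in BMP4 cultures, against 8.85 and 8.76 in control cultures, and rose by 1.74 ± 0.30 (adjusted p = 0.00271). Lox, which cross-links collagen and elastin, rose by 1.74 ± 0.37, and its relative Loxl3 fell by 0.66 ± 0.15 (adjusted p = 0.0108 and 0.0145). Of the 3 risers, 1 passed without BMP4 replicate 2 and 2 without either control array.

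Of 30 matrix proteases and inhibitors 5 rose and 1 fell, with a median of 0.33. For this list and the next 2, the shares over all genes were 2.6% higher and 3.32% lower. Adamts5, the chief aggrecan-cutting protease of mouse cartilage, read 8.90 and 9.73 in BMP4 cultures, against 7.38 and 8.20 in control cultures, and rose by 1.52 ± 0.36 (adjusted p = 0.0195). Mmp16, Adamts1, Adamts6 and Adamts9 rose by 0.79 to 1.04. Reck, a membrane inhibitor of metalloproteases, fell by 0.52 ± 0.12 (adjusted p = 0.0156). The number of risers was 0 without BMP4 replicate 2, 1 without control replicate 1, 3 without either other array or with all 30 arrays, and 1 when only these 4 arrays were fitted. Of 28 basement membrane genes Lama2, a laminin chain, rose by 1.34 ± 0.25, and the integrin ligand Npnt rose by 1.24 ± 0.26 (adjusted p = 0.00497 and 0.0106). Col8a2 fell by 1.16 ± 0.30 (adjusted p = 0.0309). Of 12 adipogenic genes the fatty acid transporter Cd36, the lipase Lpl, the factor Cebpa and the lipid droplet protein Plin2 rose, and Ebf3 fell. Cd36 is also carried by macrophages, and it read 6.80 and 7.26 in BMP4 cultures, against 4.79 and 5.09 in control cultures (2.09 ± 0.27, adjusted p = 0.000503). Of the 4 adipogenic risers, Cd36 alone passed without BMP4 replicate 2 or either control array.

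**Figure D3:**
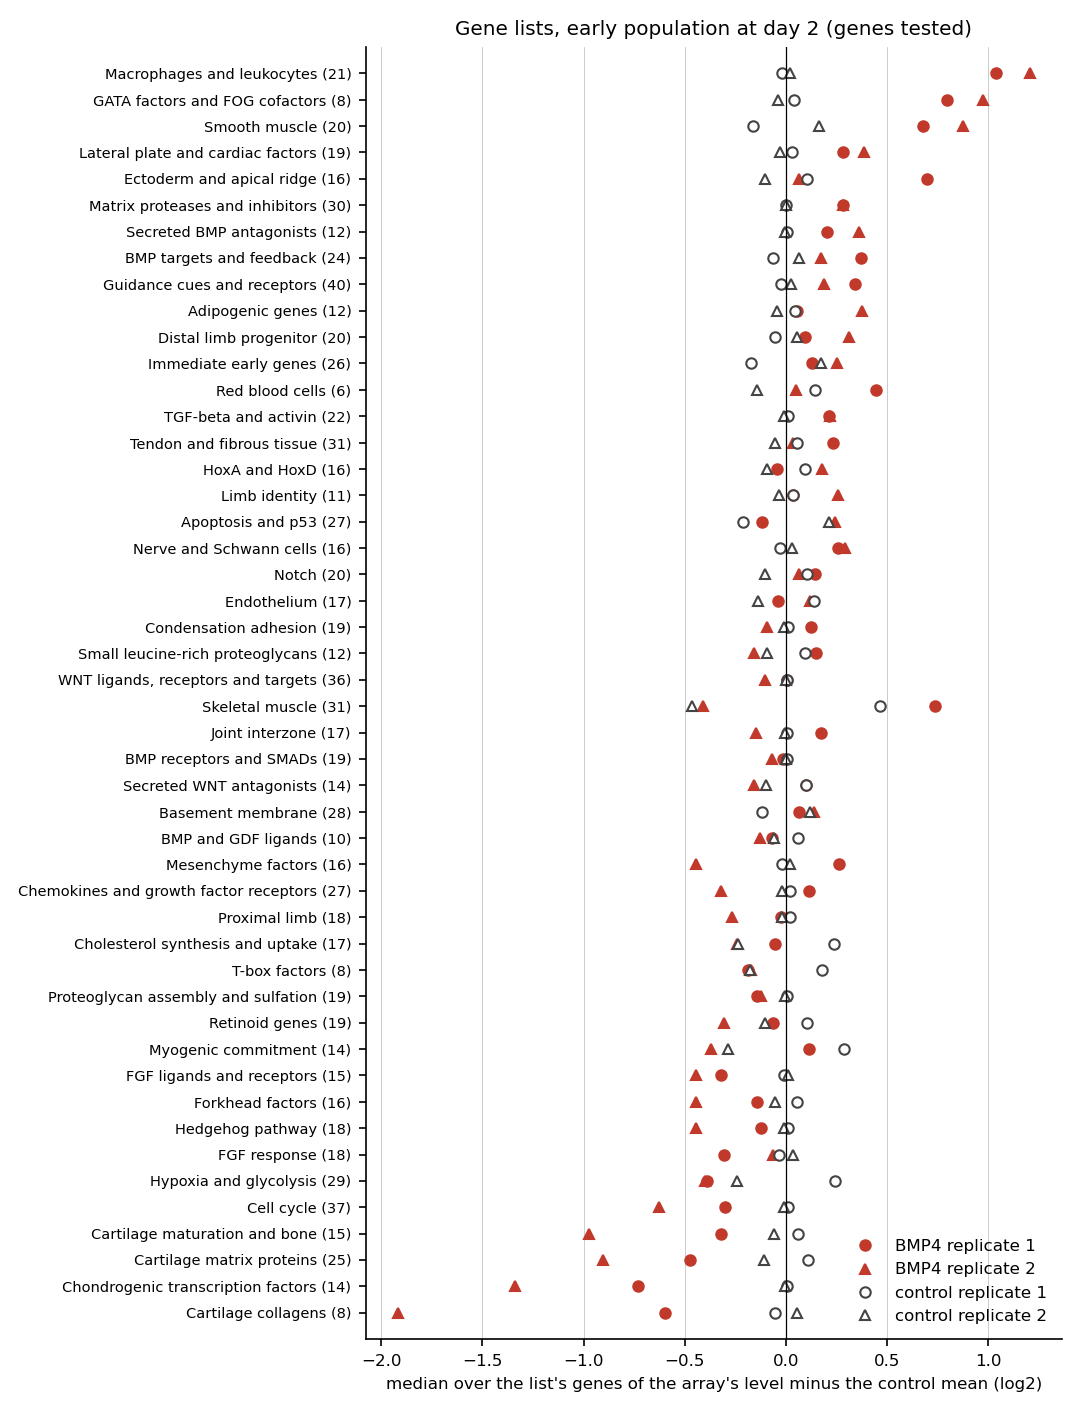
Each row is 1 gene list with the number of genes tested, and each symbol is the median over the list of an array's level minus the control mean (log2), for BMP4 arrays in filled red and control arrays in open symbols. Macrophage, GATA and smooth muscle genes lie furthest right for both BMP4 replicates, and cartilage lists furthest left, more so for replicate 2. Skeletal muscle genes split by replicate number instead.

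Some smooth muscle genes rose with BMP4, and none fell. Of 20 tested, 19 lay above 0, 7 rose and 0 fell, with a median of 0.87, and 16 had both BMP4 arrays above both controls, where 27.1% of all genes did. Actg2, an actin of visceral smooth muscle, read 9.75 and 10.34 in BMP4 cultures, against 7.44 and 7.77 in control cultures. The groups lay about 2 apart, and the rise was 2.44 ± 0.52 (adjusted p = 0.0108). Myocd, the coactivator myocardin that switches on smooth muscle genes with serum response factor, read 8.25 and 9.50 in BMP4 cultures, against 6.13 and 7.02 in control cultures, and rose by 2.30 ± 0.55 (adjusted p = 0.0209). Rgs5, a marker of pericytes, rose by 2.12 ± 0.42, and all 3 of its other probe sets passed. The actin-binding protein Synpo2 and Mrvi1 rose by 1.63 ± 0.28 and 1.49 ± 0.39, the myosin light chain Myl9 by 1.14 ± 0.25 and the integrin Itga8 by 0.95 ± 0.18. The common early markers did not pass: Tagln had a difference of 0.77 ± 0.26 (adjusted p = 0.0953), and Acta2, with 12.49 and 12.32 in BMP4 cultures, against 12.11 and 12.34 in control cultures, overlapped. The number of risers was 0 without BMP4 replicate 2, 1 without control replicate 1, and 5 when only these 4 arrays were fitted.

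Serum response factor binds the CArG box, a motif spelled CC, a run of A or T, and GG, so the promoter windows of the risers were searched for it on both strands. Of 5 risers with a promoter sequence in RefSeq (GRCm38.p6), 1 held a CArG box in the window of 250 bases before the start. Of all 32851 windows 1.47% did, and a gene counted when any of its windows matched. The riser with the box was Myl9. The 250 bases before its start at chr2:156775214-156775463 on the + strand are shown because the box stands in capitals there. A match of letters is a description and shows no binding.
Myl9: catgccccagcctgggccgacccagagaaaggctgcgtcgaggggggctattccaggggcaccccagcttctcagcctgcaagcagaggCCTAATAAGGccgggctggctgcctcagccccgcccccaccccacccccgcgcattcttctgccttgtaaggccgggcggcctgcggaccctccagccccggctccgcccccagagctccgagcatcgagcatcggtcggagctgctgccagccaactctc

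Macrophage genes were the list with the most members called. Of 21 tested, all lay above 0, 13 rose and 0 fell, with a median of 1.02, and 20 had both BMP4 arrays above both controls. Over all genes 52.1% lay above 0, 2.6% rose and 27.1% had both BMP4 arrays above both controls. Mpeg1, a pore-forming protein of macrophages, read 7.35 and 7.58 in BMP4 cultures, against 4.99 and 5.10 in control cultures. The controls were dim and the BMP4 arrays close together, a rise of 2.43 ± 0.46 (adjusted p = 0.00569). Csf1r, the receptor that macrophages need to grow, read 8.90 and 8.86 in BMP4 cultures, against 7.75 and 7.98 in control cultures, and rose by 1.02 ± 0.15 (adjusted p = 0.00124). The leukocyte membrane protein Cd53 read 7.15 and 7.40 in BMP4 cultures, against 5.70 and 5.56 in control cultures, and rose by 1.64 ± 0.22 (adjusted p = 0.000598). Ctss, C1qb, Tyrobp, C1qa, Cx3cr1, Lyz2, Cd68, Ptprc, Adgre1 and Fcgr3 rose by 0.80 to 1.62. The summed signal of all 23 macrophage genes on the array was 3111 and 3416 in BMP4 cultures, against 1215 and 1392 in control cultures, and Aif1 and Itgam were below the low-value limit on all 4 arrays. Gpnmb, a membrane protein that macrophages also carry, read 9.24 and 9.73 in BMP4 cultures, against 6.52 and 7.62 in control cultures, and rose by 2.42 ± 0.39 (adjusted p = 0.00213). Risers numbered 5 without BMP4 replicate 2, 6 without control replicate 1, and 7 when only these 4 arrays were fitted. The part of these cells in the other results was not tested.

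The markers of other cell types showed less, where 2.6% of all genes tested rose and 3.32% fell. Endothelial genes summed to 1076 and 875 in BMP4 cultures, against 979 and 845 in control cultures, with 0 of 17 tested past the threshold, 1 with an unadjusted p under 0.05 and a median of 0.04. Red blood cell genes summed to 555 and 321 in BMP4 cultures, against 450 and 224 in control cultures. Of 6 tested, 0 passed limma's test and 0 had an unadjusted p under 0.05. Over all 14944 genes 3122 had such a p. Skeletal muscle genes summed to 8553 and 3706 in BMP4 cultures, against 6645 and 3205 in control cultures. They were thus high in replicate 1 and low in replicate 2 of either treatment, and 1 of 31 passed, the myosin chaperone Unc45b (1.43 ± 0.36, adjusted p = 0.0243). Of 14 genes of myogenic commitment 1 rose, Megf10 by 1.04 ± 0.30 (adjusted p = 0.0458). Ectoderm and apical ridge genes summed to 1912 and 1869 in BMP4 cultures, against 1290 and 1510 in control cultures, and 1 of 16 passed, the epidermal factor Grhl3 (0.78 ± 0.21, adjusted p = 0.0385). Of 16 nerve and Schwann cell genes 2 rose. Nefm, a neurofilament, read 7.69 and 8.55 in BMP4 cultures, against 5.62 and 5.96 in control cultures (2.33 ± 0.46, adjusted p = 0.00705), and Elavl4, a neuronal RNA-binding protein, rose by 0.92 ± 0.26 (adjusted p = 0.0469).

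A share of the cell cycle genes was lower with BMP4. Of 37 tested 12 fell and 0 rose, with a median of -0.41, and 27 had both BMP4 arrays below both controls, where 25.3% of all genes did. Cdc6, which loads the replicative helicase, read 7.55 and 7.29 in BMP4 cultures, against 8.27 and 8.42 in control cultures, and fell by 0.92 ± 0.17 (adjusted p = 0.00387). Cyclin D1 (Ccnd1), which drives entry into the cycle, read 10.43 and 9.89 in BMP4 cultures, against 11.00 and 11.04 in control cultures, and fell by 0.87 ± 0.18 (adjusted p = 0.00918). Cyclin B2 (Ccnb2), a mitotic cyclin, read 8.96 and 8.50 in BMP4 cultures, against 9.76 and 9.47 in control cultures, and fell by 0.88 ± 0.19 (adjusted p = 0.0111). These falls were under 1 on the log2 scale, with groups that did not overlap. The others were Birc5, Ccne1, Bub1, Mcm5, Aurkb, Cdc20, Top2a, Bub1b and Ccna2, with falls between 0.51 and 0.78. For Mcm5 1 of 2 other probe sets had the same sign. The number that fell was 19 without BMP4 replicate 1, 0 without BMP4 replicate 2, 1 without control replicate 1 and 2 without control replicate 2. None passed when only these 4 arrays were fitted.

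Promoters of mitotic genes are known for CCAAT boxes, bound by NF-Y, and for the cell cycle homology region, which holds TTTGAA. Both motifs were searched on both strands in the same window. Of 9 genes that fell and had a sequence, 6 held CCAAT and 3 held TTTGAA, and the same 3 held both. Of 21 cell cycle genes that did not pass, 15 held CCAAT, 6 held TTTGAA and 5 held both. Over all windows the shares were 33.8%, 16% and 5.55%. The share with CCAAT was thus 66.7% in genes that fell and 71.4% in those that did not pass. The 250 bases before the start of 2 that fell are shown with the motifs of either strand in capitals, Ccnb2 from chr9:70421555-70421804 and Top2a from chr11:99024190-99024439, both on the - strand.
Ccnb2: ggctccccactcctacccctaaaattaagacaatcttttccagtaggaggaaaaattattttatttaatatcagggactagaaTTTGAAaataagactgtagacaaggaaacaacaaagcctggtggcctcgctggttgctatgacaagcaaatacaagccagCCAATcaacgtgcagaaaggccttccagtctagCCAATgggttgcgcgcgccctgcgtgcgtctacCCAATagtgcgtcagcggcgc
Top2a: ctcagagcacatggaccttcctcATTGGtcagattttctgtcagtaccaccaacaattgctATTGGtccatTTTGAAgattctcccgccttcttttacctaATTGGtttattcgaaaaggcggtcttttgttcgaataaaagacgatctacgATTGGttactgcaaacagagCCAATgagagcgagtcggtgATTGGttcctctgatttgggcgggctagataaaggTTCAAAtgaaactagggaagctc
Ccnb2 held 3 CCAAT boxes and Top2a, the DNA topoisomerase of mitosis, held 6. Top2a read 10.14 and 9.82 in BMP4 cultures, against 10.59 and 10.59 in control cultures, and fell by 0.61 ± 0.13 (adjusted p = 0.0121).

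Survival and stress genes had scattered calls, where 2.6% of all genes tested rose and 3.32% fell. Bcl2, which holds back cell death, read 8.32 and 7.50 in BMP4 cultures, against 10.18 and 10.13 in control cultures. Both BMP4 arrays were more than 1 below the controls, and the gene fell by 2.24 ± 0.40 (adjusted p = 0.00356), with 3 of 3 other probe sets of the same sign. Of 27 apoptosis and p53 genes Bid and Sesn1 also fell, by 1.03 ± 0.26 and 0.85 ± 0.22, and the death effector Bak1 rose by 0.79 ± 0.21 (adjusted p = 0.0289, 0.0332 and 0.037). None of the 3 that fell passed without BMP4 replicate 2, and 1 did without each other array. Of 26 immediate early genes Klf2, Klf4 and Ier2 fell by 1.16 ± 0.27, 1.09 ± 0.26 and 0.53 ± 0.15, and 0 rose. Without BMP4 replicate 1, 1 of these 3 passed, and 0 did without each other array. With the mean of all probe sets 1 passed. Of 29 hypoxia and glycolysis genes the factor Epas1 rose by 1.39 ± 0.33, and the glucose transporter Slc2a3 and the oxygen sensor Egln3 fell by 1.24 ± 0.28 and 0.97 ± 0.28. Their list had a median of -0.36. In limma's test 0 of 17 genes of cholesterol synthesis and uptake and 0 of 17 genes of joint interzones passed. At an unadjusted p under 0.05 there were 3 and 4, beside 3122 of all 14944 genes.

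Several of the largest changes lay outside the lists. Zfp804a, a zinc-finger gene, read 7.60 and 7.96 in BMP4 cultures, against 4.77 and 4.57 in control cultures. The gap was wide beside the replicate spread, and the rise was 3.11 ± 0.26 (adjusted p = 8.45e-06). Nell1, a secreted protein known from bone formation, rose by 2.64 ± 0.36, and Gucy1b1, a subunit of the nitric oxide receptor guanylate cyclase, rose by 2.33 ± 0.32 (adjusted p = 0.0008 each). The anion transporter Slc26a7 rose by 2.49 ± 0.45, Plac8 by 2.54 ± 0.55 and the aldehyde dehydrogenase Aldh1a7 by 2.32 ± 0.60 (adjusted p = 0.00399, 0.0115 and 0.0308). Among the falls were the ubiquitin ligase Wwp2, whose gene hosts a cartilage microRNA, by 2.15 ± 0.57, and Thsd4 by 2.19 ± 0.47 (adjusted p = 0.0339 and 0.0121). Trim47 read 5.65 and 5.56 in BMP4 cultures, against 7.85 and 7.85 in control cultures. Its replicates were nearly equal, and the gene fell by 2.25 ± 0.25 (adjusted p = 0.000157).

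The day 2 response of the early population was next set against its day 1 response, which rests on 4 other arrays. At day 1 BMP4 raised 258 genes and lowered 170 (1.73% and 1.14% of genes tested, or 2.86% in all). The genes higher at both days were 128, which is 32.9% of the day 2 list and 49.6% of the day 1 list. The genes lower at both days were 64, or 12.9% and 37.6%. Of the genes higher at day 2, 94.9% had the same sign at day 1, with a median of 1.03 at day 2 and 0.65 at day 1. Of those lower at day 2, 87.9% did, with medians of -0.75 and -0.32. The test of the difference between the days passed for 1 gene (0.00669% of genes tested).

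That gene was Kitl, the ligand of Kit. At day 1 it read 8.55 and 8.73 in BMP4 cultures, against 7.22 and 7.11 in control cultures, and at day 2 8.24 and 8.18 in BMP4 cultures, against 8.90 and 8.94 in control cultures. It was higher with BMP4 at day 1 (1.48 ± 0.23, adjusted p = 0.0014) and lower without passing at day 2 (-0.71 ± 0.23, adjusted p = 0.0772). The day 2 minus day 1 difference was -2.18 ± 0.32 (adjusted p = 0.0443). Of its 3 other probe sets 2 had the same sign at day 2. Kitl was the 1 gene among 1055 with an unadjusted p under 0.05 that passed. The call of Kitl was lost on leaving out any single early array other than day 2 BMP4 replicate 1.

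Other genes had unlike values at the 2 days without a tested difference. Matn1 read 5.09 and 4.69 at day 1 in BMP4 cultures, against 5.90 and 5.72 in control cultures, so its day 2 levels were higher in either medium. The day 2 minus day 1 difference of its response was -2.48 ± 0.78 (adjusted p = 0.446). Ihh read 6.89 and 6.52 at day 1 in BMP4 cultures, against 6.51 and 6.64 in control cultures, where the groups overlapped (difference of responses -1.84 ± 0.40, adjusted p = 0.197). Tbx20 was already higher with BMP4 at day 1, by 4.57 ± 0.51 (adjusted p = 0.000114). Of the BMP target genes 10 rose at day 1, against 4 at day 2, and Smad6 and Id2 were among those 10, with 1.72 ± 0.30 and 0.62 ± 0.15 (adjusted p = 0.00389 and 0.0342). The difference between the days did not pass for either (adjusted p = 0.719 and 0.588). Of the 20 smooth muscle genes 1 rose at day 1, and of the 21 macrophage genes 4 did, with list medians of 0.25 and 0.65. Cartilage matrix genes had a median of 0.09 at day 1, with 4 higher and 0 lower, and cartilage collagens a median of -0.52 with none called.

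**Figure D4:**
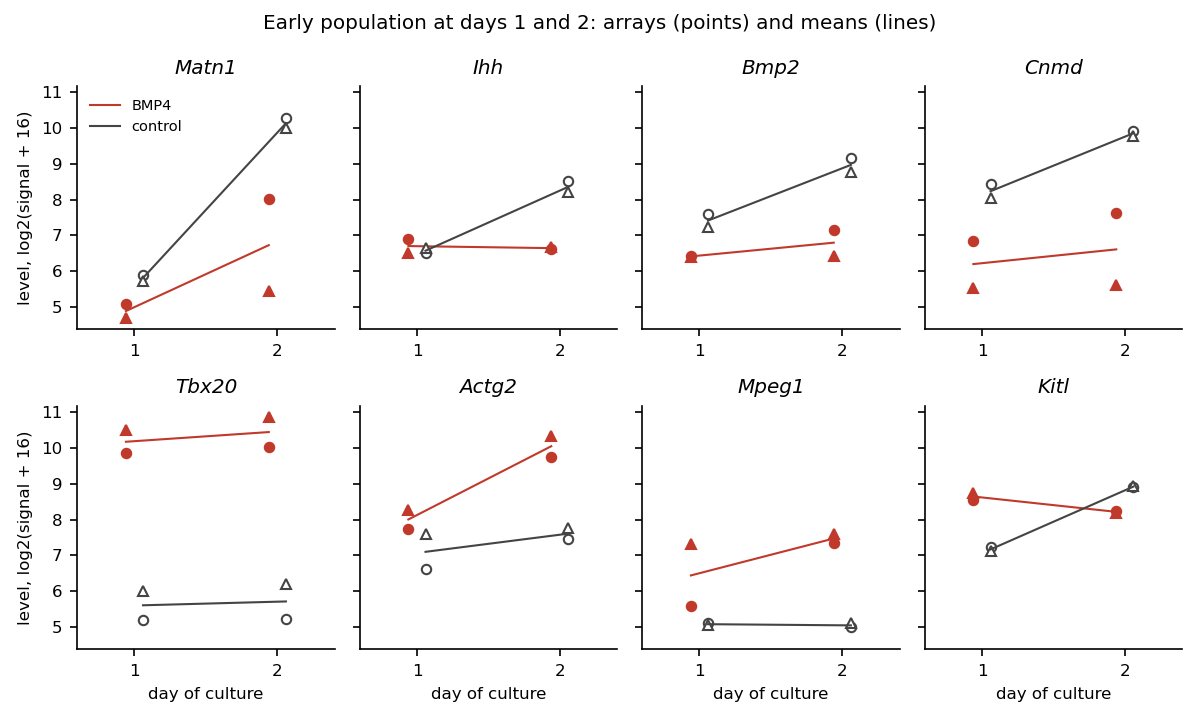
Levels, log2(signal + 16), of 8 genes in the early population by day of culture, with BMP4 arrays in filled red, control arrays open, circles for replicate 1, triangles for replicate 2 and lines through group means. Matn1, Ihh, Bmp2 and Cnmd are higher at day 2 than at day 1 in control cultures and less so or not in BMP4 cultures, Tbx20 is high with BMP4 at both days, and Kitl crosses over.

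The same treatment of forelimb cells at day 2 gave far fewer calls. In the intermediate population, from distal forelimb, 1 gene passed (0.00669% of genes tested), Sparcl1, a matrix glycoprotein, which rose there by 1.61 ± 0.17. In the late population, from proximal forelimb, 1 gene passed, Chadl, a chondroadherin relative, which rose there by 1.80 ± 0.24. At an unadjusted p under 0.05 there were 3122 genes in the early population, against 720 with intermediate cells and 745 with late cells. A share of about 0.05 of the 14944 genes would pass this cut with no response at all, if all arrays varied independently. Both forelimb counts lay near that share. Same-numbered arrays tended to deviate alike, so these counts do not show that forelimb cells lacked a response. Of the genes higher in the early population 75.8% had the same sign with intermediate cells and 77.9% with late cells, with medians of 0.20 and 0.21 there. Of the lower genes 65.7% and 63.9% did, with medians of -0.07 in each. A tested difference of responses passed for 22 genes against the intermediate population, or 0.147% of genes tested, and for 26 genes, or 0.174%, against the late population. The early response was the higher one for 9 and the lower one for 13 of the 22 (0.0602% and 0.087%), and for 10 and 16 of the 26 (0.0669% and 0.107%). In both tests 11 genes passed.

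Bmp2 differed from both forelimb populations. At day 2 it read 8.14 and 7.79 in intermediate BMP4 cultures, against 8.15 and 8.16 in intermediate controls, and 8.76 and 8.50 in late BMP4 cultures, against 8.62 and 8.82 in late controls. Neither forelimb population had a gap like that of the early cells, and the early response was lower by 1.99 ± 0.30 than the intermediate and by 2.09 ± 0.30 than the late one (adjusted p = 0.0192 and 0.012). Trim47, Twist2, Galnt3, Kcns1 and Sparcl1 also had a more negative response in the early cells in both tests, and St8sia4, Zfp804a and Glra2 a more positive one. Gata6 read 6.23 and 6.64 in intermediate BMP4 cultures, against 6.78 and 7.02 in intermediate controls, and 6.57 and 8.38 in late BMP4 cultures, against 5.77 and 6.02 in late controls. Its early response exceeded the intermediate one by 3.48 ± 0.60 (adjusted p = 0.0353), while the test against the late one did not pass (1.43 ± 0.60, adjusted p = 0.384).

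Among the genes that passed against the late population, cartilage genes had the widest gaps. Cnmd read 9.99 and 9.38 in late BMP4 cultures, against 8.04 and 8.74 in late controls, and the early response lay below the late one by 4.54 ± 0.78 (log2 difference -4.54, adjusted p = 0.0282). Chadl read 6.84 and 6.96 in late BMP4 cultures, against 5.03 and 5.16 in late controls, while the early cells had 5.18 and 4.77 in BMP4 cultures, against 6.42 and 6.41 in control cultures. The groups lay apart in opposite directions, with a difference of responses of -3.24 ± 0.34 (adjusted p = 0.000373). Papss2 passed too, with -1.97 ± 0.38 (adjusted p = 0.0372). Matn1 and Ihh did not, with -3.79 ± 0.78 and -1.82 ± 0.40 (adjusted p = 0.0638 and 0.0897). For Tbx20 the test of the difference passed neither against the intermediate (2.38 ± 0.72, adjusted p = 0.221) nor against the late population (2.33 ± 0.72, adjusted p = 0.237). Of the macrophage genes, Cd53 and Csf1r differed from the late response by 1.68 ± 0.31 and 1.14 ± 0.21 (adjusted p = 0.0345 and 0.0365). Against the intermediate response, Cd53 and Csf1r had differences of 0.77 ± 0.31 and 0.19 ± 0.21 (adjusted p = 0.4 and 0.85).

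These counts depended on the choice of arrays. Against the intermediate population 106 genes passed without early BMP4 replicate 1, and 2 without early BMP4 replicate 2, early control replicate 1, intermediate BMP4 replicate 1 or intermediate control replicate 1. Without early control replicate 2 or intermediate BMP4 replicate 2 the count was 6. Against the late population the same early array changed the count to 109, and each of 5 single arrays to 2 or 1, namely early BMP4 replicate 2, both early controls, late BMP4 replicate 1 and late control replicate 1. It was 6 without late BMP4 replicate 2 and 9 without late control replicate 2.

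**Figure D5:**
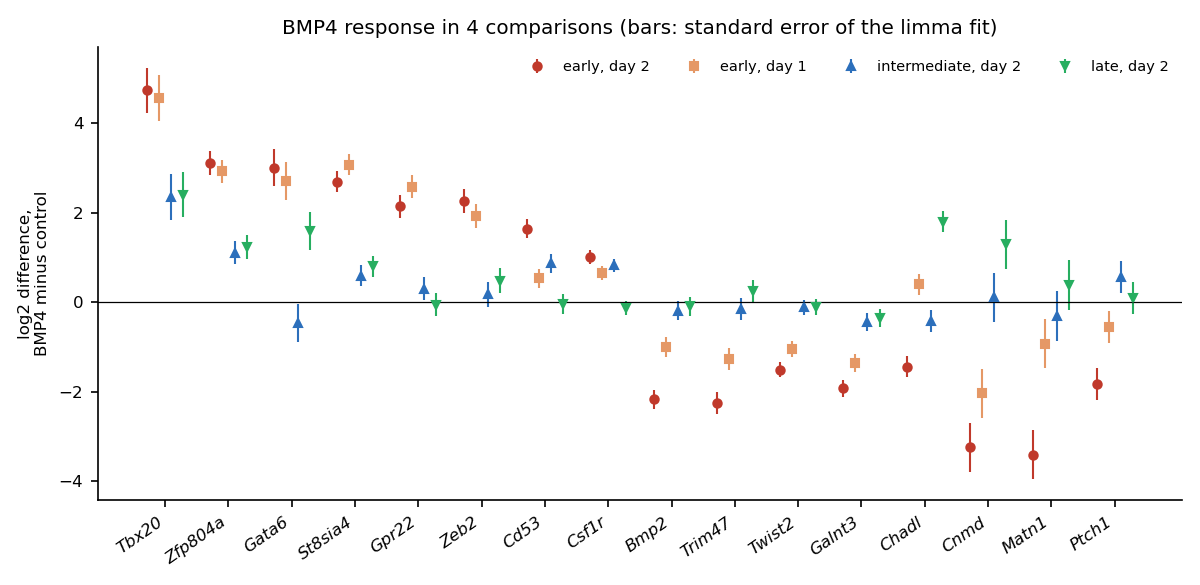
Log2 difference, BMP4 minus control, of 16 genes in 4 comparisons, with bars for the standard error of the limma fit. Red circles show the early population at day 2, orange squares the early population at day 1, blue triangles the intermediate and green triangles the late population at day 2. Red and orange points lie on the same side of 0 for all these genes but Chadl, and Chadl and Cnmd lie above 0 in the late population.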

How the data were processed

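RNA of limb mesenchyme cultures was hybridised to Affymetrix mouse arrays. The authors deposited 1 intensity per probe set and array, made with MAS5 per the submitters' processing notes, and each array's trimmed mean was 150. The probe set summary, the background correction and the scaling are thus the authors'. From these intensities log2(signal + 16) was computed; a fold on that scale understates changes of dim genes. Probe sets above their array's 40th percentile on at least 2 of 24 arrays were kept, and the brightest per gene symbol was used, which gave 14944 genes of 45101 probe sets. Of the probe sets 34945 had 1 symbol, 932 several and 9160 none; none without a single symbol is named.

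The 24 arrays of days 1 and 2 were fitted with limma 3.58.1 in R 4.3.3 as 12 group means sharing 1 spread with a mean-variance trend. Calls are two-sided at a Benjamini-Hochberg adjusted p of 0.05 over all genes, and responses were compared by contrasts of this fit. Median signals ranged from 33.9 to 46.4 per array, and the number of arrays limits the precision. On simulated data the day 2 test recovered 70% of changes of 1 log2 and 92% of changes of 2, with 7.57% of calls false. The simulation drew independent normal noise with each gene's own spread, and no effect shared by same-numbered arrays. These values are thus not the error rates of the calls on the real arrays.

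The named genes are the 20 largest called rises and falls and all called members of 48 lists (848 of 962 genes tested). Up to 4 members of smallest p were added for lists with fewer calls. The 8 strongest differences of responses per direction and a set of BMP, cartilage and limb genes complete them. Some, such as Galnt5, Kif26a and Gpr85, count among the named genes and are not described above. Members and lists were chosen with earlier results of these data known. Promoters are RefSeq's (GRCm38.p6).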

Additional observations from a re-analysis of the deposited data

Results flagged for a closer look

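Of the differences between 2 responses that passed in limma, 1 between days, 22 against the intermediate and 26 against the late population, the 39 that concern named genes are given here as the log2 response of the early population at day 2 minus the other response, with its standard error. The response of Kitl at day 2 minus day 1 was -2.18 ± 0.32, with both BMP4 arrays above both controls at day 1 and below them at day 2.

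Against the intermediate population the early response was higher for Gata6 by 3.48 ± 0.60, Slitrk5 by 2.28 ± 0.27, St8sia4 by 2.10 ± 0.32, Zeb2 by 2.09 ± 0.39, Zfp804a by 2.01 ± 0.37, Ralyl by 1.98 ± 0.35, Glra2 by 1.80 ± 0.33 and Olfml2b by 1.76 ± 0.33. The difference was negative for Kcns1 (-2.53 ± 0.45), Trim47 (-2.10 ± 0.35), Sparcl1 (-2.09 ± 0.24), Bmp2 (-1.99 ± 0.30) and Lbhd2 (-1.98 ± 0.37). It was also negative for Chst15 (-1.64 ± 0.32), Galnt3 (-1.48 ± 0.28), Gm266 (-1.44 ± 0.27), Twist2 (-1.39 ± 0.24) and Loxl3 (-1.12 ± 0.21). Their limma adjusted p ran from 0.00119 for Sparcl1 to 0.0472 for Chst15.

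Against the late population the early response was higher for Gpr22 by 2.20 ± 0.36, Lin7b by 2.19 ± 0.37, Glra2 by 2.01 ± 0.33, St8sia4 by 1.90 ± 0.32, Zfp804a by 1.88 ± 0.37, Zdhhc11 by 1.80 ± 0.34, Slc15a3 by 1.74 ± 0.32, Cd53 by 1.68 ± 0.31 and Csf1r by 1.14 ± 0.21. The difference was negative for Cnmd (-4.54 ± 0.78), Chadl (-3.24 ± 0.34), Trim47 (-2.49 ± 0.35), Kcns1 (-2.38 ± 0.45), Bmp2 (-2.09 ± 0.30) and Papss2 (-1.97 ± 0.38). It was also negative for Plcd1 (-1.70 ± 0.27), Tnfrsf11b (-1.68 ± 0.32), Galnt3 (-1.57 ± 0.28), Twist2 (-1.40 ± 0.24) and Sparcl1 (-1.27 ± 0.24). Their limma adjusted p ran from 0.000373 for Chadl to 0.0491 for Zfp804a.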

How the results depend on the processing

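No named gene that passed the test reversed its direction under any alternative. Left out in turn, single arrays gave 59 to 319 genes higher, 37 to 503 lower, 0 to 6 with a day difference, and 2 to 106 and 1 to 109 with a difference to the intermediate and late populations; the lone array of a group was taken to vary like the other groups. With only the arrays compared the test called 116 genes higher, 74 lower, and 5 and 1 against the other populations. The mean of all probe sets of a gene gave 397 higher and 309 lower, so that 56.2% of calls were higher, against 44.0% with the brightest probe set. The 1 gene called between days became 0 with log2(signal + 1), quantile normalization, median centring, no filter, the mean of probe sets, all 30 arrays or no trend. The count against the intermediate population was 9 with log2(signal + 1), 39 with log2(signal + 64) and 41 with all 30 arrays, and that against the late one was 70 with array weights. With the replicate block the counts were 767 higher, 991 lower, 26 between days, and 178 and 143 against the other populations. Same-numbered samples of the early BMP4 and control groups at day 2 deviated together at a correlation of 0.303. Over 66 pairs of groups this correlation ran from 0 to 0.354 with a median of 0.167, so same-numbered arrays tended to deviate alike. The main test takes the replicates as unpaired. The labels name no shared litter, batch or day, and whether the numbers pair the samples was not tested. Among uncalled genes the difference was -0.0335 for Epor, -0.40 for Hbb-y and -0.0541 for Sox5 without control replicate 2, with 0.33, 2.26 and 0.20 without control replicate 1. For Id2 it was -0.0194 without control replicate 1 and 0.17 without control replicate 2, and for Tbx4 -0.0547 without BMP4 replicate 2 and 0.30 without BMP4 replicate 1. With quantile normalization Id3 had 0.0323, and with the mean of probe sets Mef2a had 0.0031, Rfng 0.0553 and Sox5 -0.16. The cause of these changes was not tested.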
